A study of Mus musculus with 6 samples.

Results

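The 5 genes described here, Mgmt, Mpg, Alkbh1, Alkbh2 and Alkbh3, encode enzymes that remove alkyl groups from DNA or cut out the alkylated base. They were chosen by gene symbol, and the symbols matched 5 of the 47719 gene identifiers in the RNA-Seq tables. All 5 genes were among the 13818 genes tested, those whose FPKM (fragments mapped to a gene, scaled by its exon length and by the size of the library) averaged 1 or more over the 6 mice. The prostates came from B6.129S4-Trp53tm3.1Tyj/J mice, which carry the Trp53 R270H point mutation in the germline. Mice 39 and 41 were wildtype (Trp53+/+), mice 37 and 40 were heterozygous (Trp53R270H/+) and mice 47 and 49 were homozygous (Trp53R270H/R270H). Every mouse, wildtype controls included, was about 3 months old and had received 5 Gy of whole body irradiation 6 h before the prostate was taken, so the values describe irradiated tissue only. R270H is a whole-body mutation and the RNA was taken from the whole gland, so fewer cells of a type and less RNA per cell cannot be told apart in these samples. The comparison asks whether Mgmt is alone among the alkylation repair genes in following Trp53 genotype.

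Alkylating agents add methyl or larger groups to the bases of DNA, and cells deal with them by direct reversal or by base excision. In direct reversal the group is taken off and the base is kept. Mgmt moves the alkyl group from the O6 position of guanine onto a cysteine of its own and is used up in the process, so that each molecule acts once. Alkbh2 and Alkbh3 are iron- and oxoglutarate-dependent dioxygenases that oxidise the methyl group away, Alkbh2 mainly in double-stranded DNA and Alkbh3 in single-stranded DNA and RNA, and Alkbh1 is a related dioxygenase with RNA and DNA substrates. In base excision, Mpg is the glycosylase that cuts out alkylated purines and leaves the site to the enzymes of base excision repair. MGMT is well known in human tumours for silencing through methylation of its CpG-rich promoter.

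Mgmt (ENSMUSG00000054612) lies on the plus strand of chromosome 7 from 136894614 to 137130266 of GRCm38. The other genes lie elsewhere, with Mpg (ENSMUSG00000020287) on chromosome 11 from 32226505 to 32232700, Alkbh1 (ENSMUSG00000079036) on chromosome 12 from 87425840 to 87444017, Alkbh2 (ENSMUSG00000044339) on chromosome 5 from 114123926 to 114128218 and Alkbh3 (ENSMUSG00000040174) on chromosome 2 from 93980550 to 94010807. Mpg shares its chromosome with Trp53, which spans 69580359 to 69591873. The 250 bases before the RefSeq start of Mgmt (GRCm38.p6, chr7:136894336-136894585, plus strand) are shown because Mgmt is the gene with the largest difference between genotypes. Every CpG dinucleotide in them is in capitals.
Mgmt: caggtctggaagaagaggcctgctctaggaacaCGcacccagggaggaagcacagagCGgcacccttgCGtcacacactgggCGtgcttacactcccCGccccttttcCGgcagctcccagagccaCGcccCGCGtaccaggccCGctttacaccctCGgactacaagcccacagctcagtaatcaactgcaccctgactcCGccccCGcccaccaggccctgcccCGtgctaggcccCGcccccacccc
This stretch holds 15 CpG dinucleotides. With the 50 bases that follow the start, the window of 300 bases holds 20, more than 73.5% of the 32851 RefSeq promoter windows of that length, whose median is 7. The windows of the other genes hold 22 (Mpg), 20 (Alkbh1), 18 (Alkbh3) and 13 (Alkbh2), so a CpG-rich start is shared by all 5 genes and does not set Mgmt apart. A RefSeq start inside Mgmt, at 136913098, has a window with 3. The p53 half-site consensus, searched on both strands, was found in none of these 6 windows, and 8.36% of all promoter windows hold it. No match says only that these letters are not in these windows. DNA methylation was not measured.

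The libraries differed in more than genotype. The summed FPKM of 8 prostate epithelial markers was between 13834 and 23649 in 5 mice and 1435 in homozygous mouse 47, where Pbsn (probasin, the classic secretory product of the gland) had an FPKM of 257 against at least 7329 in the others. All 8 markers were above an FPKM of 1 in every mouse. The 6 seminal vesicle markers set wildtype mouse 39 apart, with a sum of 3363 against at least 30292. Gene by gene, Svs2 set both homozygous mice apart, and the other markers set mouse 47 apart but not mouse 49. Svs2 is listed at 0 in both homozygous mice and was the 1 gene of the list called (adjusted p = 0.0477 in limma). Svs4 and Svs5 are listed at 0 in mouse 47, where Svs6 had an FPKM of 26147 against at most 1021 in the other mice, so the sums are uncertain. A list of 8 skeletal muscle genes was higher in both mutant groups (1516 to 2232 in wildtype, 4199 to 4462 in heterozygous and 4481 to 5191 in homozygous mice), and so was a list of 4 endothelial genes (21.9 to 24.4, 33.0 to 36.0 and 29.6 to 37.3). The sum of 6 lymphocyte markers, of which 4 were under an FPKM of 1 in every mouse, was 3.44 to 3.57 in wildtype, 3.69 to 3.84 in heterozygous and 4.69 to 5.28 in the homozygous mice. Its members disagreed. Cd3g had 2.35 and 0.704 in homozygous mice 47 and 49 against 0.572 and 0.442 in wildtype. Ptprc had 1.18 and 2.61 against 1.24 and 1.22, and Ms4a1 had 0.0187 and 0.502 against 0.648 and 0.658. The sum of 4 basal epithelial markers was 129.9 to 186 in wildtype, 133 to 135 in heterozygous and 124 to 126 in the homozygous mice. This list was split. Krt15, the largest part, was lower in both homozygous mice (FPKM 72.4 and 81.5 against 93.6 and 131 in wildtype). Trp63 was higher in them (5.54 and 5.94 against 3.19 and 3.86), and Krt5 and Krt14 overlapped between these genotypes. Of 4 hepatocyte markers, none reached an FPKM of 1 in every mouse, and Alb, which defines hepatocytes, had at most 0.342. Trp53 itself had an FPKM between 17.3 and 21.4 in the 6 mice.

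Mgmt fell in homozygous mice, the only one of the 5 genes with a call, and its heterozygous values lay in between. Its FPKM was 17.0 and 13.7 in wildtype mice 39 and 41. It was 7.80 and 6.28 in heterozygous mice 37 and 40. It was 2.91 and 1.87 in homozygous mice 47 and 49. The 3 genotypes did not overlap, and the lowest wildtype value was above the highest heterozygous one by more than the gap between the heterozygous mice. The wildtype mean was 15.4 ± 2.36 (SD, n = 2), the heterozygous mean 7.04 ± 1.07 (SD, n = 2) and the homozygous mean 2.39 ± 0.734 (SD, n = 2). On the log2(FPKM + 0.1) scale the difference of homozygous from wildtype mice was -2.66 (95% confidence interval -3.28 to -2.04), and the level fell by 84.2% (adjusted p = 0.0322 in limma's moderated test). In that contrast 0.384% of the tested genes passed the adjusted threshold of 0.05 and 0.261% fell past it, 36 genes in all, and 11 of these had a larger fall than Mgmt. Among all tested genes, called or not, 98 had a lower log2 fold change.

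The heterozygous values of Mgmt did not pass the test against either of the other genotypes. The difference from wildtype mice was -1.12 on the log2 scale (95% confidence interval -1.74 to -0.49, adjusted p = 0.366 in limma). The difference of homozygous from heterozygous mice was -1.54 (95% confidence interval -2.17 to -0.92, adjusted p = 0.601 in limma). In the first of these contrasts no gene of the 13818 passed the adjusted threshold (0.0%) and 949 had an unadjusted p under 0.05, Mgmt among them (unadjusted p = 0.00483 in limma). In the second, 0.0145% of the genes passed, 0.00724% with a lower value. The moderated F-test over the 3 genotypes gave Mgmt an adjusted p of 0.0730, where 0.101% of the genes passed.

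The call in homozygous mice did not hold in every fit with a mouse left out, while the log2 difference stayed between -2.97 and -2.36. Each such fit has fewer mice from which to estimate the spread, so a lost call does not show which library it rested on. Without homozygous mouse 47, whose prostate markers were low, the log2 difference of Mgmt was -2.97 with an adjusted p of 0.0768 in limma. Without wildtype mouse 39 it was -2.50 (adjusted p = 0.200 in limma), and without heterozygous mouse 37 or 40, which enter only through the shared spread, it stayed at -2.66 with an adjusted p of 0.164 or 0.186. Without homozygous mouse 49 it was -2.36 (adjusted p = 0.0385 in limma). Summed skeletal muscle and endothelial markers were higher, and summed prostate epithelial markers lower, in the mutant mice in which Mgmt was lower. The lymphocyte sum was also higher in them, but its members disagreed in the homozygous mice, with Cd3g higher and Ms4a1 lower in both. Summed basal epithelial markers were lower and Svs2 was listed at 0 in both homozygous mice. Among the basal markers Krt15 was lower there and Trp63 higher. The part of these markers in the values of Mgmt was not tested. Of the homozygous pair, mouse 49 had the lower FPKM of Mgmt and the higher prostate marker sum.

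**Figure D1:**
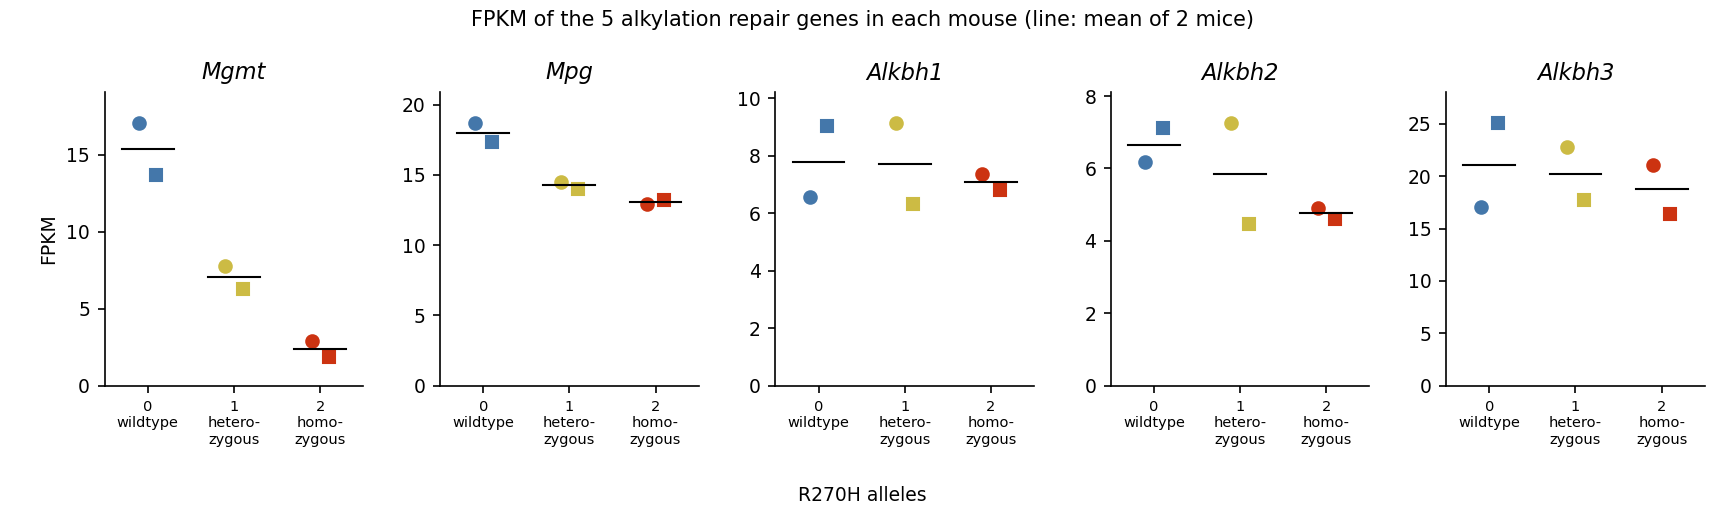
FPKM (vertical axis, from 0) of the 5 alkylation repair genes by number of R270H alleles. Each point is 1 mouse, circles marking the first and squares the second mouse of a genotype, and the line is the mean of 2 mice. Mgmt runs from 17.0 down to 1.87 without overlap between genotypes, Mpg runs from 18.7 down to 12.9, and the points of Alkbh1 and Alkbh3 overlap between all genotypes.

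Mpg followed the same order with a much smaller spread of values. Its FPKM was 18.7 and 17.4 in mice 39 and 41, 14.5 and 14.0 in mice 37 and 40, and 12.9 and 13.2 in mice 47 and 49. These values also fall in the order of allele number without overlap, with most of the step between wildtype and heterozygous mice. Wildtype mice had a mean of 18.0 ± 0.917 (SD, n = 2), heterozygous mice one of 14.2 ± 0.326 (SD, n = 2) and homozygous mice one of 13.0 ± 0.218 (SD, n = 2). The log2 difference of homozygous from wildtype mice was -0.46 (95% confidence interval -0.73 to -0.19) and did not pass adjustment over all genes (adjusted p = 0.155, unadjusted p = 0.00589 in limma). In heterozygous mice it was -0.34 (95% confidence interval -0.60 to -0.07, adjusted p = 0.594 in limma), and between homozygous and heterozygous mice -0.13 (95% confidence interval -0.39 to 0.14, adjusted p = 0.744 in limma). Mgmt and Mpg were thus 2 of 5 genes with falling, fully ordered values, an order found in 4.98% of all tested genes, with the rising order in 3.85% and in none of the 5. Values in heterozygous mice that were all lower than those in wildtype mice were found for 19.9% of the tested genes and for the same 2 of the 5. At an unadjusted p under 0.05 in limma, 2 of the 5 genes (Mgmt and Mpg) were lower in heterozygous than in wildtype mice, where 6.87% of the tested genes had such a p and 2.21% were lower. The same 2 genes were lower in homozygous than in wildtype mice, where 9.32% of the tested genes were lower at that level. Between homozygous and heterozygous mice it was Mgmt alone, where 6.39% of the tested genes had such a p and 4.42% were lower. Without mouse 47 the difference of Mpg was -0.44. The annotation places part of Nprl3, on the opposite strand, over Mpg, and the sources used here do not say whether fragments were counted by strand. The FPKM of Nprl3 was 16.6 and 17.4 in wildtype, 14.3 and 14.0 in heterozygous and 15.6 and 14.5 in the homozygous mice, so it was also lower in all 4 mutant mice than in the wildtype mice but was not ordered by allele number.

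Alkbh2 had much the same point estimate as Mpg in homozygous mice, with a wider error. Its FPKM was 6.18 and 7.11 in wildtype, 7.24 and 4.47 in heterozygous and 4.92 and 4.61 in the homozygous mice. Both homozygous values lay below both wildtype values, which was true of 28.7% of all tested genes, while the heterozygous pair spanned the whole range. The log2 difference of homozygous from wildtype mice was -0.47 (95% confidence interval -1.08 to 0.14, adjusted p = 0.367 in limma), that of heterozygous mice -0.22 (95% confidence interval -0.82 to 0.39) and that between homozygous and heterozygous mice -0.25 (95% confidence interval -0.86 to 0.35).

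Alkbh3, the most abundant of the 5 genes in most mice, showed no difference between genotypes that exceeded the spread between mice. Its FPKM was 17.0 and 25.0 in wildtype, 22.8 and 17.7 in heterozygous and 21.04 and 16.4 in the homozygous mice. Each genotype held a high and a low mouse, and all 3 ranges overlapped. The log2 difference of homozygous from wildtype mice was -0.15 (95% confidence interval -0.75 to 0.45, adjusted p = 0.764 in limma), and that of heterozygous mice -0.04 (95% confidence interval -0.64 to 0.56). Alkbh1 gave much the same picture, with an FPKM of 6.56 and 9.01 in wildtype, 9.12 and 6.32 in heterozygous and 7.37 and 6.80 in the homozygous mice. Both homozygous mice lay within the wildtype range. Its log2 difference in homozygous mice was -0.12 (95% confidence interval -0.70 to 0.46, adjusted p = 0.814 in limma), and that in heterozygous mice -0.02 (95% confidence interval -0.60 to 0.56). The intervals of Alkbh1 and Alkbh3 do not reach the difference seen for Mgmt. Within each genotype, mice 41, 37 and 47 had the higher value of the pair for Alkbh1, Alkbh2 and Alkbh3 alike. Mice 39, 40 and 49 had the lower one, so these 3 genes shared a spread that genotype did not describe. Mice 41, 37 and 47 also had the larger FPKM of each pair when summed over all genes (607710, 633551 and 636407 against 544712, 575837 and 518671). A link between the 2 was not tested. The annotation also places Slirp over Alkbh1 and Usp30 over Alkbh2, both on the opposite strand.

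**Figure D2:**
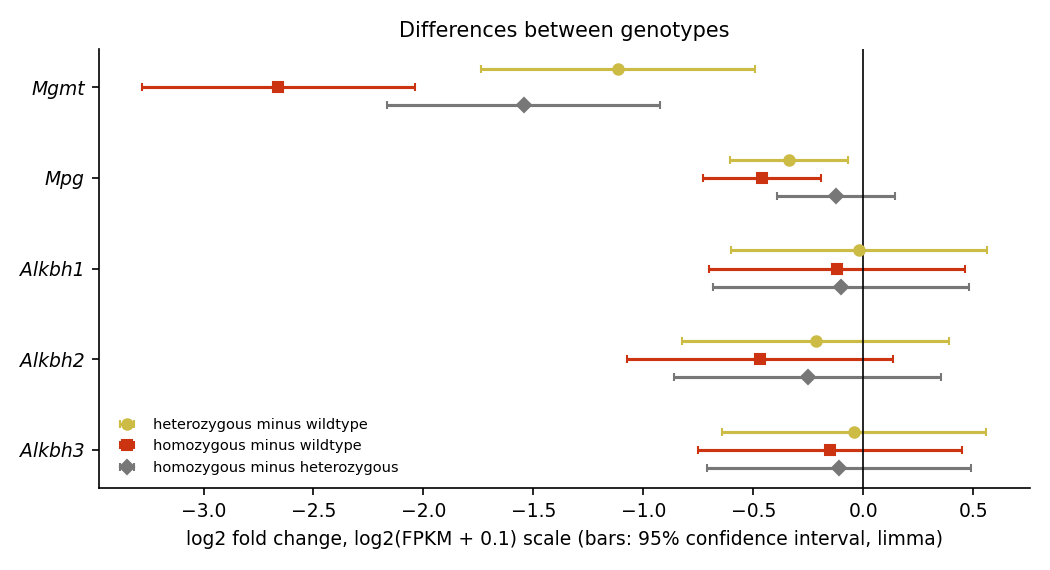
Log2 fold changes of the 5 genes on the log2(FPKM + 0.1) scale (horizontal axis) for the 3 pairs of genotypes, with bars for the 95% confidence interval from limma. The interval of Mgmt in homozygous against wildtype mice, -3.28 to -2.04, lies wholly below those of the other 4 genes.

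Whether Mgmt moved differently from the other genes was tested on its ratio to each of them within a mouse, which leaves out any scaling of a library as a whole. The ratio of Mgmt to Mpg was 0.914 and 0.790 in wildtype, 0.539 and 0.448 in heterozygous and 0.226 and 0.142 in the homozygous mice. That to Alkbh2 was 2.76 and 1.93, 1.08 and 1.41, and 0.591 and 0.406 in the same order, so Mgmt went from above Alkbh2 to below it. The ratio to Alkbh1 went from 2.60 and 1.52 to 0.395 and 0.275 between wildtype and homozygous mice, and that to Alkbh3 from 1.00 and 0.547 to 0.138 and 0.114. None of the 4 ratios overlapped between any pair of genotypes. The slope of the log2 ratio per R270H allele was -1.10 against Mpg, -1.10 against Alkbh2, -1.25 against Alkbh3 and -1.27 against Alkbh1. An exact permutation test over the 90 assignments of allele numbers to the 6 mice gave a two-sided p of 0.0222 for each of these 4 ratios, which is the smallest value the design allows. The genes were chosen with earlier results for Mgmt known, so these p-values are not independent evidence that it differs. The values of Mgmt, ordered by allele number on their own, enter all 4 ratios, so the 4 equal p-values are not separate results.

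**Figure D3:**
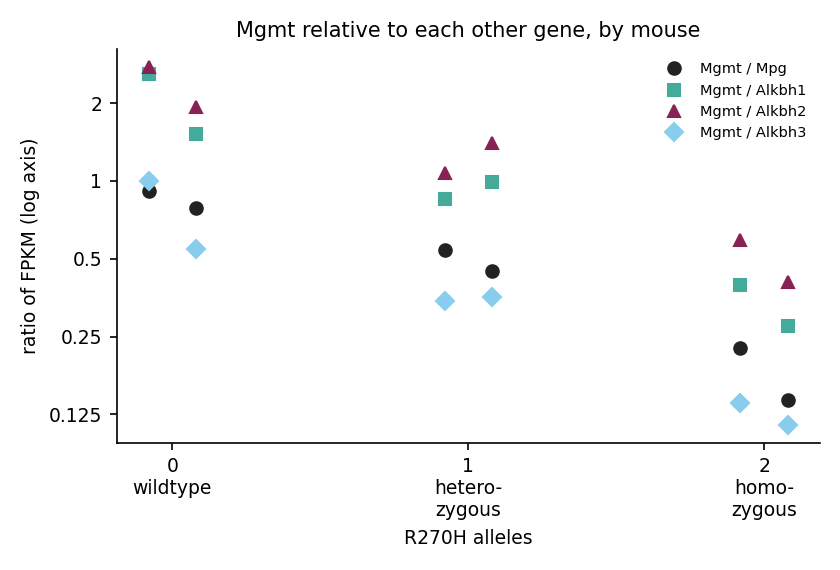
Ratio of the FPKM of Mgmt to that of each other gene (vertical axis, log scale) by number of R270H alleles, with 1 point per mouse and ratio. All 4 ratios fall from wildtype to heterozygous to homozygous mice, that to Mpg from 0.914 to 0.142.

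The place of Mgmt among the 5 genes changed with genotype. FPKM is corrected for gene length, so levels can be set side by side. In wildtype mice the mean FPKM was highest for Alkbh3 (21.04 ± 5.65, SD, n = 2), followed by Mpg, Mgmt, Alkbh1 (7.78 ± 1.74, SD, n = 2) and Alkbh2 (6.65 ± 0.657, SD, n = 2). Alkbh3 overlapped with Mpg and with Mgmt in wildtype mice, and Alkbh1 with Alkbh2. In homozygous mice the order was Alkbh3 (18.7 ± 3.26, SD, n = 2), Mpg, Alkbh1 (7.08 ± 0.403, SD, n = 2), Alkbh2 (4.76 ± 0.217, SD, n = 2) and Mgmt, with no overlap between neighbours. Mgmt ranked 2 and 3 in the wildtype mice, 4 in both heterozygous mice and 5 in both homozygous mice. It made up 26.0% and 19.0% of the summed FPKM of the 5 genes in wildtype, 12.7% and 12.9% in heterozygous and 5.92% and 4.36% in the homozygous mice. Without Mgmt, the sum of the other 4 genes was 48.4 and 58.5 in wildtype, 53.6 and 42.5 in heterozygous and 46.2 and 41.0 in the homozygous mice, so that wildtype and heterozygous mice overlapped.

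**Figure D4:**
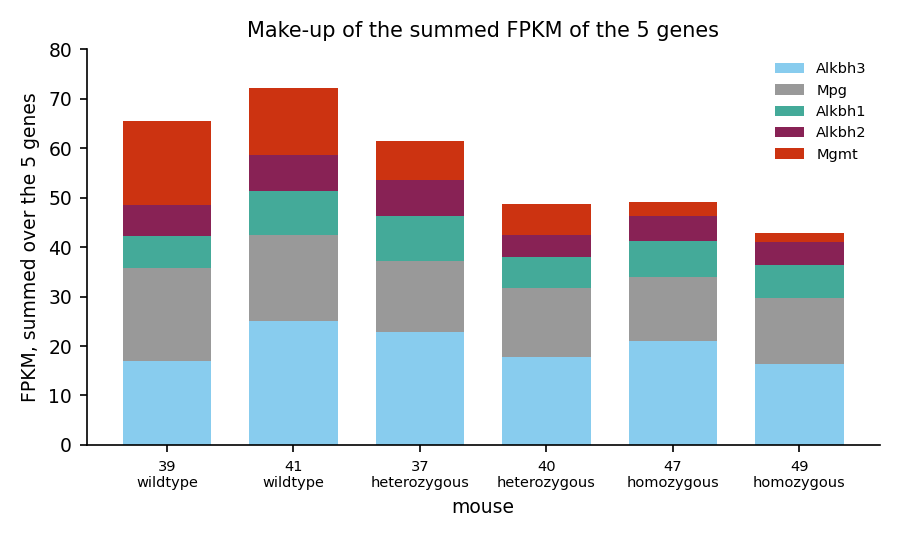
Stacked bars, from 0, of the FPKM of the 5 genes in each mouse. The top segment, Mgmt, shrinks from 26.0% and 19.0% of the bar in wildtype mice to 5.92% and 4.36% in homozygous mice.

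Of 42 genes of the wider repair machinery, in 5 lists, 38 were tested, and none had an adjusted p under 0.05 in limma in any contrast. Since only 0.384% of all tested genes passed in homozygous against wildtype mice, 0.0% in heterozygous against wildtype mice and 0.0145% between homozygous and heterozygous mice, a count of 0 among 38 is near the background. In homozygous against wildtype mice, 1 of the 38 was higher and 3 were lower at an unadjusted p under 0.05, where 18.0% of all tested genes had such a p. In heterozygous against wildtype mice 1 was lower at that level, as were 2.21% of all tested genes. Between homozygous and heterozygous mice 3 were higher and 1 was lower, where 272 of all 13818 tested genes were higher and 611 were lower. The median log2 difference of the 38 genes was -0.04, as it was over all tested genes, while that of the 5 alkylation repair genes was -0.46. In heterozygous mice the medians were -0.04 for the 38 genes, -0.22 for the 5 genes and -0.01 for all tested genes.

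The other AlkB family members, which act on RNA or protein or have roles less well defined, are the closest relatives of Alkbh1, Alkbh2 and Alkbh3. Of these 6 genes 5 had a negative log2 difference in homozygous mice, with a median of -0.24 and none called. The lowest was Alkbh6, with 34.8 and 48.8 FPKM in wildtype, 46.4 and 34.7 in heterozygous and 27.7 and 29.9 in the homozygous mice (log2 difference -0.52, adjusted p = 0.288 in limma). The highest was Alkbh8, a tRNA methyltransferase, with an FPKM of 1.36 and 1.13, 1.08 and 1.35, and 1.94 and 1.83 for the same genotypes (log2 difference 0.56, adjusted p = 0.352 in limma). Fto, an RNA demethylase, had a difference of -0.02. The ASCC genes, of which Ascc3 encodes a helicase that opens DNA for Alkbh3, lay between -0.18 (Ascc2) and -0.06 (Ascc3).

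The other DNA glycosylases, which do the work of Mpg on uracil and oxidised or mismatched bases, lay between -0.14 (Ung, adjusted p = 0.816 in limma) and 0.53 (Mbd4, adjusted p = 0.399 in limma), with 8 of 10 genes tested. Mbd4, a glycosylase for mismatches at CpG sites, had an FPKM of 1.18 and 1.45 in wildtype, 0.93 and 1.27 in heterozygous and 1.92 and 1.93 in the homozygous mice. Among the 15 genes that complete base excision repair, the range ran from -0.54 for Apex2, an AP endonuclease (adjusted p = 0.312 in limma), to 0.28 for Lig3, a DNA ligase (adjusted p = 0.358 in limma).

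The mismatch repair genes matter beside Mgmt because the O6-methylguanine that Mgmt leaves in place pairs with thymine and is then recognised as a mismatch. Msh6, a subunit of the recognition complex, had an FPKM of 7.07 and 6.83 in wildtype, 5.41 and 5.89 in heterozygous and 4.26 and 4.87 in the homozygous mice. These values were ordered by allele number without overlap, with a log2 difference of -0.60 in homozygous mice (95% confidence interval -0.95 to -0.25, adjusted p = 0.155 in limma). Msh3, which takes the place of Msh6 in the complex for larger loops, went the other way in homozygous mice, with 3.41 and 3.33, 3.30 and 3.29, and 5.09 and 4.47 (log2 difference 0.49, adjusted p = 0.213 in limma). The genes below the test's floor were Neil2, Neil3, Pms1 and Exo1. Exo1, a nuclease of mismatch repair named after its values were seen, had an FPKM of 1.04 and 1.33 in wildtype, 0.865 and 0.811 in heterozygous and 0.336 and 0.547 in the homozygous mice.

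**Figure D5:**
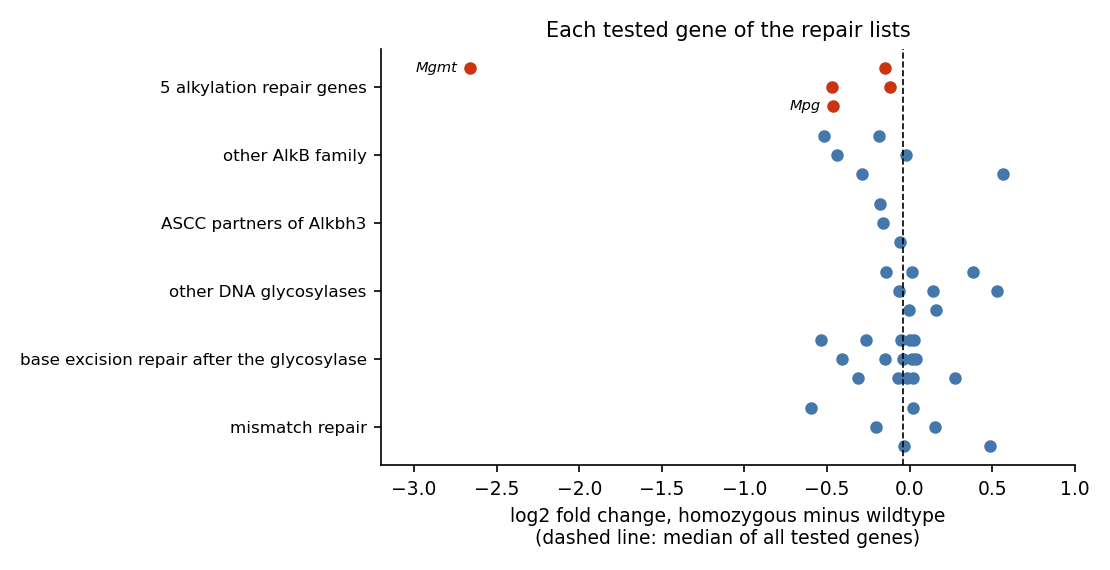
Log2 fold change, homozygous minus wildtype (horizontal axis), for each tested gene of the 5 alkylation repair genes (red) and of the 5 repair lists (blue), with a dashed line at the median of all tested genes, -0.04. Mgmt at -2.66 lies apart, while the other genes lie between -0.60 and 0.56.

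None of the tested genes beside the 5 loci was called in homozygous against wildtype mice, where 0.384% of all tested genes were. Of the nearest protein-coding genes on each side, 7 of 10 were tested, and their log2 differences in homozygous mice lay between -0.30 and 0.27 (adjusted p between 0.430 and 0.998 in limma). Next to Mgmt, Ebf3 (a transcription factor gene 63406 bases away) had an FPKM of 1.29 and 0.797 in wildtype, 0.901 and 1.31 in heterozygous and 0.952 and 1.62 in the homozygous animals, with a log2 difference of 0.27. On the other side Mki67, the proliferation marker, lies 1178252 bases away and was not tested for its low level, with 0.713 and 0.633, 0.462 and 0.571, and 0.811 and 1.09 FPKM. Ung, which lies 2167 bases from Alkbh2, had a log2 difference of -0.14.

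Genes that tracked Mgmt were sought by Pearson's r of log2(FPKM + 0.1) over the 6 mice, which describes shape and not size. Predicted genes and those with RIKEN, accession-style or pseudogene names were left out. The 5 remaining genes with the highest r were picked. They were Slc25a42 (r = 0.999), which encodes a mitochondrial carrier, Commd3 (0.999), Rrp36 (0.995), Aaas (0.995), a nuclear pore gene, and Phlda3 (0.995). All 5 were ordered by allele number, and their change in homozygous relative to wildtype mice was between -29.5% for Slc25a42 and -75.0% for Phlda3, against -84.2% for Mgmt. Phlda3 had an FPKM of 115 and 100.3 in wildtype, 61.4 and 57.5 in heterozygous and 28.6 and 25.0 in the homozygous mice (adjusted p = 0.0126 in limma). Mpg had an r of 0.917 with Mgmt, and 310 tested genes had a higher one. The values were 0.72 for Alkbh2, 0.33 for Alkbh3 and 0.27 for Alkbh1. With 6 mice in 3 genotypes, any gene that follows allele number reaches a high r, so these values are a description without a test.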

How the data were processed

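Prostate RNA of 6 mice, 2 per genotype, was compared. The authors prepared stranded mRNA libraries, aligned read pairs to GRCm38 with HISAT and estimated gene-level FPKM in a Cufflinks workflow, and deposited 1 FPKM table per mouse. The submitters' notes also name Cuffnorm. Tool versions, the annotation and the use of strand in counting are not given in the sources used here. Counts are not among the values, so FPKM was tested on a log scale. The most common ratio between mice of values under 0.1 FPKM gave fragment numbers between 0.785 and 1.07 of those of mouse 39, and 13452 to 13827 genes per mouse reached an FPKM of 1. The absolute depth behind a value is unknown.

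Genes whose FPKM averaged 1 or more over the 6 mice (13818) entered the test, in which limma 3.58.1 (R 4.3.3) was run on log2(FPKM + 0.1) (3 genotype means, eBayes with an intensity trend, no block), with Benjamini-Hochberg adjustment over these genes and a threshold of 0.05. The log2 scale with a pseudocount understates changes of low genes. The labels do not tie the mice to litters or days. The limma p-values set each difference against the spread between these mice, moderated towards an intensity trend over the tested genes. In simulated data 200 of 13818 genes were changed in homozygous mice, with the spread shuffled among genes. There 66.0% of changes of 2 and 26.0% of changes of 1 on the log2 scale were recovered. Ratios were tested by exact permutation over the 6 mice.

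The genes and lists were chosen with earlier results of these data known. Named genes were the 5 genes, the highest and lowest of each repair list in homozygous against wildtype mice, and any called list gene. The nearest protein-coding neighbours, the 5 genes most like Mgmt (predicted, RIKEN, accession-style and pseudogene names left out) and Trp53 were also named. Others named, such as Fto, Exo1, the Svs genes, Nprl3, Slirp and Usp30, were added after the values were seen. Summed FPKM of other markers in wildtype, heterozygous and homozygous mice was 1512 to 1735, 1655 to 2003 and 1633 to 2314 for smooth muscle, 55.6 to 92.0, 78.3 to 98.2 and 91.0 to 106 for adipocytes, and 80.8 to 84.0, 98.1 to 126 and 52.0 to 114 for macrophages. Positions come from GENCODE M21, promoters from RefSeq (GRCm38.p6), in which 5 of 5 genes matched. Alternatives were pseudocounts of 1 and 0.01, no filter, a mean FPKM of at least 5, median and quantile scaling, no trend, F-tests of single genes without moderation (log2 FPKM with no pseudocount, 19130 genes above 0 in every mouse), leaving out each mouse and, added after seeing the data, allele number as 1 numeric term. Python 3.11.15 was used for the rest. Values of some list genes are not reported here.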

Additional observations from a re-analysis of the deposited data

How the results depend on the processing

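The fall of Mgmt in homozygous mice kept its direction under every alternative run, with log2 differences between -2.28 and -2.74 under other pseudocounts, filters and scalings and between -2.97 and -2.36 with a mouse left out. Its adjusted p in limma ranged from 0.0145 to 0.200. The call was lost with no filter on low values (-2.66, adjusted p = 0.105) and without the intensity trend (-2.66, adjusted p = 0.0600), and also without mouse 39, 37, 40 or 47. With allele number as 1 numeric term, chosen after seeing the data, the adjusted p was 0.0145. The count of genes called in homozygous against wildtype mice, 53, became 4 with no filter, 23 without the trend and 4 to 128 with a mouse left out. That between homozygous and heterozygous mice, 2, became 1 with a pseudocount of 0.01, 1 at a mean FPKM of at least 5 and 0 to 54 with a mouse left out. Over the 3 genotypes together, 14 genes became 3 with no filter, 4 with quantile normalization, 9 without the trend, 0 of 19130 genes (1649 at an unadjusted p under 0.05) in an F-test on each gene alone, which also dropped the pseudocount and tested every gene above 0 in all mice and 0 to 10 with a mouse left out. In heterozygous against wildtype mice the count, 0, was 0 to 2 with a mouse left out. The cause of these changes was not tested. With a mouse left out, the log2 differences of heterozygous from wildtype mice ran from -1.27 to -0.96 for Mgmt, -0.28 to 0.24 for Alkbh1, -0.56 to 0.13 for Alkbh2 and -0.32 to 0.23 for Alkbh3. Those of homozygous from wildtype mice ran from -0.51 to -0.41 for Mpg, -0.34 to 0.11 for Alkbh1, -0.57 to -0.37 for Alkbh2 and -0.43 to 0.12 for Alkbh3. Those of homozygous from heterozygous mice ran from -1.85 to -1.24 for Mgmt, -0.36 to 0.16 for Alkbh1, -0.60 to 0.0894 for Alkbh2 and -0.29 to 0.0709 for Alkbh3, so the sign for Alkbh1, Alkbh2 and Alkbh3 can rest on 1 mouse. The slopes of the log2 ratio of Mgmt ran from -1.19 to -0.92 against Mpg, -1.46 to -1.13 against Alkbh1, -1.23 to -0.96 against Alkbh2 and -1.47 to -1.09 against Alkbh3, with an exact permutation p of 0.0333 without mouse 39, 41, 47 or 49. Without mouse 37 or 40 it was 0.0667, the smallest that this balanced design allows, since reversing the allele numbers gives a slope of the same size. No paired analysis was possible because the labels number the animals and no number is shared between genotypes. With 2 mice per genotype, 26.0% of simulated log2 changes of 1 were recovered. The simulation shuffled the spread among genes, so this share does not give the rate for Mpg or Alkbh2, whose differences were smaller than 1.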
